A study of Mus musculus with 24 samples.

Results

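The aortic endothelium of galectin-3 knockout (KO) mice was compared between a high-fat diet (HFD) and chow on 6 of the 24 microarrays of the study, 3 arrays per diet, chosen by genotype, tissue and diet alone. The study asked how the vascular endothelium of mice without galectin-3 responds to HFD, and it read aortic and skeletal muscle endothelium of KO and wild-type (WT) mice. KO mice carried the Galectin-3(-/-) genotype (strain B6.Cg-Lgals3tm1Poi/J), a germline deletion present in every cell and in both diet groups, and WT mice were C57BL/6. All mice were male, were 8 weeks old at the start of the diet and ate it for 8 weeks. HFD held 60% and chow 12% of calories as fat. Each trial was an independent experiment in which the aortas of 3 to 4 mice per group, from arch to iliac bifurcation, were pooled, so 1 array stands for 1 pool and not for 1 mouse. Live CD105+/CD45- cells were sorted from the digested tissue. CD105 is endoglin, a surface protein of endothelial cells, and CD45 marks leukocytes. The KO HFD and KO chow arrays of a trial lay on the same slide, and their difference is given below as the log2 ratio of HFD to chow, in which 1 is a doubling. Levels are log2 signals with the 75th percentile of the array set to 0. Errors are the SD over the 3 trials.

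The aortic endothelium is a single cell layer that faces the blood and sets vessel tone, clotting and the passage of lipids and glucose into the wall. It rests on a basement membrane of type IV collagens and laminins, above the elastic sheets and smooth muscle of the media, and the adventitia around them holds fibroblasts, nerves and fat. Galectin-3 is a lectin that binds sugar chains on cell surface and matrix proteins and is one of the receptors of advanced glycation end products. A circadian clock of transcription factors runs in vascular cells as in other tissues and drives a daily rhythm in many of their genes.

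Lgals3, which encodes galectin-3, still gave signal well above background on all 6 KO arrays. Its log2 levels were 3.88, 4.53 and 4.16 on chow and 2.40, 4.17 and 3.13 on HFD. The WT arrays read 2.80, 2.24 and 2.64 on chow and 3.20, 1.27 and 0.90 on HFD, so that on chow all 3 arrays labelled KO were higher than those labelled WT, and on HFD the ranges overlapped. Where its probe lies with respect to the deletion was not determined, so its signal checks no label, and the groups are named as labelled. The strain was therefore read at 18 probes that differed by more than 2 on the log2 scale between the strains in trials 2 and 3, on both diets and without overlap. On a scale where 0 is the WT mean and 1 the KO mean of those trials, the median position of the KO chow arrays was 1.05, 1.03 and 0.94. The KO HFD arrays lay at 0.64, 1.01 and 0.98. The values of trials 2 and 3 are near 1 by construction and only trial 1 is a check. The KO HFD array of trial 1 was nearer to KO at 11 of the 18 probes, against 16 for the KO chow array of that trial, which had no value at 1 of the 18. The WT arrays of trial 1 were nearer to KO at 3 probes on chow and 6 on HFD. The array labelled KO HFD trial 1 thus stands between the strains, and where trial 1 moved a mean or median below by over 1.5 times, the value without it or the values of all 3 trials are given.

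**Figure D1:**
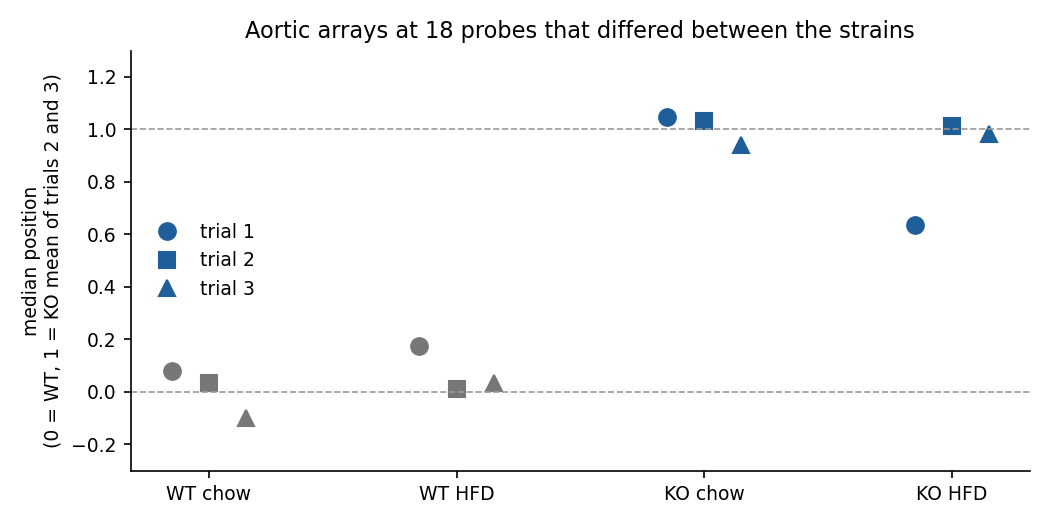
Median position of each aortic array (points, shapes by trial; KO in blue, WT in grey) at the 18 probes that differed between the strains in trials 2 and 3, on a scale with the WT mean at 0 and the KO mean at 1. The KO HFD array of trial 1 lies at 0.64, between the strains, while the KO chow array of the same trial lies at 1.05.

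Between 61.6 and 69.3% of the probes were well above background on the 6 KO arrays, and 0 spots were saturated. On arrays the number of samples, not a count of reads, limits the precision. With the pairing by trial left aside, 3 arrays against 3 cannot give a permutation p below 0.1. With the pairing kept, fewer permutations exist and the floor is higher. The median SD of a gene's log2 ratio was 0.55 over the 3 KO trials and 0.48 over the 3 WT trials. In trial 1, 28.1% of the genes had a ratio past 1 in either direction, in trial 2 24.1% and in trial 3 12.7%.

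HFD was followed by more transcripts with a higher than with a lower level in KO aortic endothelium when the same change had to appear in every trial. Of 24600 probes tested, 441 (1.79%) had a log2 ratio above 1 in all 3 trials and 275 (1.12%) had one below −1. These probes stood for 276 of 13625 genes on the higher side (2.03%) and 112 on the lower side (0.822%), with 1 probe per gene. Without trial 1 the counts were 457 genes higher (3.35%) and 241 lower (1.77%), which are larger because only 2 trials had to agree. By limma, which models all probes together, 0 probes (0%) had an adjusted p under 0.05, and the smallest adjusted p was 0.0509, for Car3. At an unadjusted limma p under 0.05 stood 2910 probes, and by the methods' t-test 0 probes passed after Benjamini-Hochberg adjustment and 1679 had a p under 0.05. No gene below is therefore called changed, and genes are described by their values in each trial. Among the genes, 984 (7.22%) had an unadjusted limma p under 0.05 and were higher on HFD, and 556 (4.08%) were lower.

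The gene with the smallest p was Car3, which encodes carbonic anhydrase 3, an abundant enzyme of adipocytes and slow muscle fibres. Its log2 level was 6.05, 4.69 and 5.03 on chow and 1.81, 1.12 and 1.41 on HFD. All HFD arrays lay below all chow arrays, by a similar distance in each trial. The mean log2 ratio was −3.81 ± 0.38 (14.0-fold lower; limma unadjusted p = 2.07e-06, adjusted p = 0.0509), and it was −3.59 without trial 1. Cyp2e1, a cytochrome P450 of liver and fat, had a ratio of −4.80 ± 0.63 (adjusted p = 0.0856). Its level was 3.63, 1.57 and 1.95 on chow and −1.89, −2.78 and −2.56 on HFD.

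Of 18 adipocyte markers, 17 were tested, 10 were below −1 in all 3 trials (background 0.822%) and 0 were above 1. Their median log2 ratio was −2.47, against 0.03 over all genes tested, and −1.64 without trial 1. Adiponectin (Adipoq), the main hormone secreted by adipocytes, had log2 levels of 5.48, 2.32 and 3.30 on chow and −1.41, 0.07 and 0.11 on HFD. The groups did not overlap, and the chow array of trial 1 was the highest of the 6. Its ratio was −4.11 ± 2.45 (limma unadjusted p = 0.00195, adjusted p = 0.254) and −2.72 without trial 1. Complement factor D (Cfd, adipsin), a serine protease made by fat cells, had a ratio of −4.02 ± 1.65 (−3.09 without trial 1) and resistin (Retn), another adipocyte hormone, one of −4.84 ± 2.77 (−3.24 without trial 1). The lipid droplet proteins Cidec (−3.54 ± 1.40) and Plin1 (−3.42 ± 1.50), named here after their values were seen, were also below −1 in every trial. Fabp4, a fatty acid carrier that capillary endothelium also makes, did not share this pattern, with ratios of −0.83, 0.50 and −0.30, and is likewise named after its values were seen. The summed log2 level of the 17 markers was 8.18 to 9.36 on the chow arrays and 6.76 to 7.61 on the HFD arrays, so the arrays did not overlap. In a sorted and pooled sample, fewer cells of a type and less RNA per cell cannot be told apart. Lep, the gene of leptin, was not well above background on any of the 6 arrays.

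The brown adipocyte list was mixed. Of its 9 tested members, 1 was past 1 upward (background 2.03%) and 1 downward (background 0.822%) in all 3 trials. The median was −1.45, or −0.62 without trial 1. Slc27a2, a fatty acid transporter and acyl-CoA synthetase, had a ratio of −4.70 ± 1.63, and Dio2, the deiodinase that activates thyroid hormone, one of 2.33 ± 1.07. Ucp1, the uncoupling protein that defines brown fat, had ratios of −3.07, −0.09 and −0.98, and its lowest chow level (2.69) was close to its highest HFD level (2.60).

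All 20 endothelial markers were tested, and each had a negative mean ratio, with 0 past −1 in all 3 trials. Their median was −0.79, with −1.61 in trial 1, −0.59 in trial 2 and −0.17 in trial 3, and it was −0.43 without trial 1. In 12 of the 20 the ratio was below 0 in all 3 trials (background 15%), and in 9 all HFD arrays lay below all chow arrays (background 6.26%). Pecam1, the junction protein CD31, had log2 levels of 0.68, 1.50 and 2.02 on chow and −0.90, −0.95 and 1.43 on HFD. The HFD array of trial 3 reached into the range of the chow arrays. Its ratio was −1.54 ± 0.93 (limma unadjusted p = 0.032, adjusted p = 0.403). Erg and Cdh5 are named after their values were seen. Erg, a transcription factor that maintains endothelial identity, had the largest mean ratio of the list, −1.88 ± 1.04, with −1.97 without trial 1. Cdh5 (VE-cadherin), the adhesion protein of endothelial junctions, had ratios of −1.63, −0.36 and −0.20. Endoglin (Eng), on which the cells were sorted, had ratios of −0.84, −0.53 and 0.73. All 20 markers were well above background on all 6 arrays, and the summed level was 9.18 to 9.69 on chow and 8.15 to 9.03 on HFD.

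The platelet and red cell markers had a negative mean ratio in all 8 tested members. Of these, 3 were below −1 in all 3 trials (background 0.822%), and the median was −1.65, or −0.61 without trial 1. Ppbp, a platelet chemokine, had a ratio of −3.05 ± 2.48 and −1.63 without trial 1. Gp9, a subunit of the platelet receptor for von Willebrand factor, had one of −2.77 ± 1.69, and Pf4, platelet factor 4, one of −2.02 ± 1.16, which were −1.87 and −1.39 without trial 1. Their summed level was 3.52 to 6.02 on chow and 2.86 to 3.18 on HFD.

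Among markers of other cells, the summed levels of the smooth muscle, fibroblast and macrophage lists overlapped between the diets, and those of the Schwann cell and mesothelial lists did not. The smooth muscle list had a median of 0.12 over 15 tested genes, or 0.35 without trial 1, and its defining gene Acta2, the smooth muscle actin, had ratios of −0.68, 1.08 and 0.18. Only its member Cnn1, the actin-binding protein calponin, was past 1 in all 3 trials, with levels of −1.38, −3.38 and −0.69 on chow and 0.31, 0.44 and 1.44 on HFD. The fibroblast list had a median of 0.78, or 0.35 without trial 1, and its summed levels overlapped between the diets at 8.96 to 9.15 on chow and 8.97 to 9.91 on HFD. The macrophage list had a median of −0.42 over 9 tested genes, or −0.65 without trial 1, with summed levels of 1.88 to 2.96 on chow and 1.72 to 2.06 on HFD. The Schwann cell list was positive in all 6 tested members, with a median of 1.03 and summed levels of 2.00 to 2.20 on chow and 2.29 to 4.16 on HFD. Of 8 mesothelial markers 3 were tested, with summed levels of 1.46 to 2.24 on chow and −0.26 to 1.29 on HFD, lower in every trial. Their defining gene Msln, mesothelin, was not well above background on all arrays of either diet. The part of these cell types in the results that follow was not tested.

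**Figure D2:**
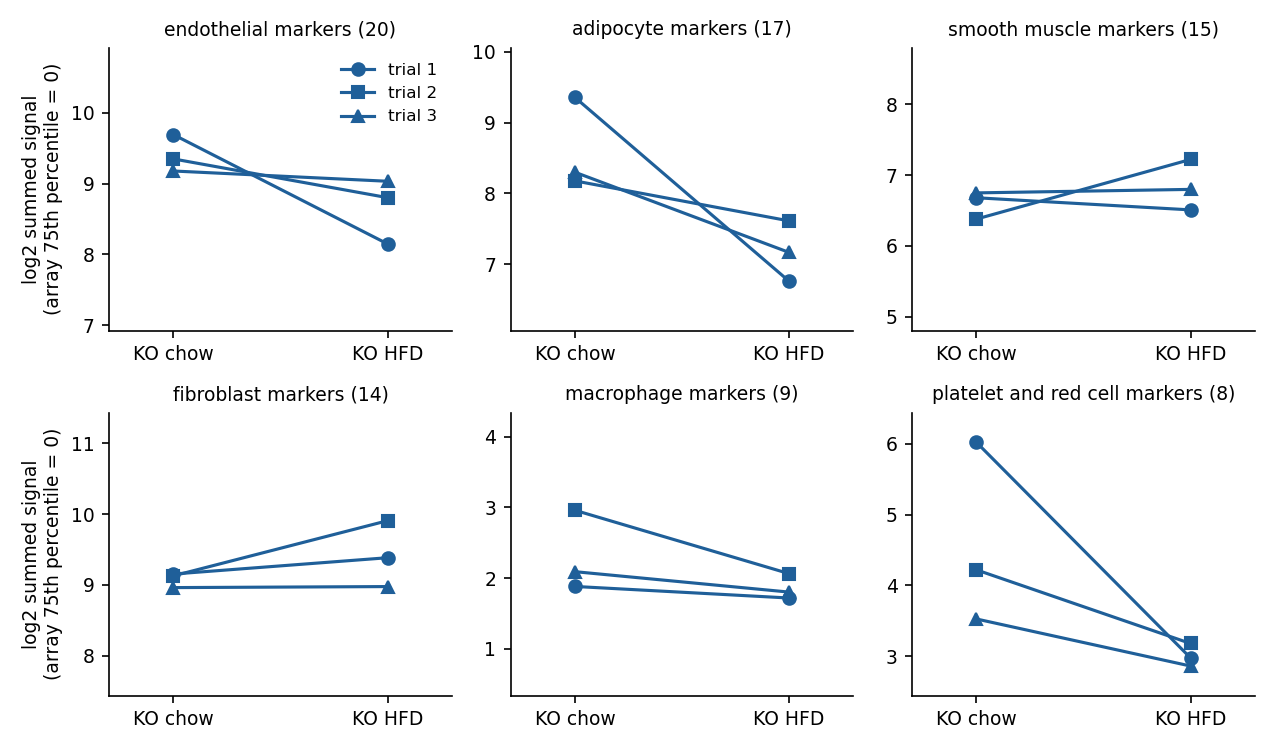
Summed log2 signal of 6 cell type marker lists on the KO chow and KO HFD arrays (vertical axis, with the 75th percentile of the array at 0; number of tested members in brackets; lines join the arrays of a trial). Adipocyte, endothelial and platelet and red cell markers lay lower on every HFD array than on any chow array, and smooth muscle, fibroblast and macrophage markers overlapped.

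Among all genes below −1 in every trial, the 15 with the largest mean ratio are shown in the plot of the largest ratios. Cyp1a1, the cytochrome P450 induced by the aryl hydrocarbon receptor, was lowest of all. Its log2 level was 2.12, 0.24 and 0.06 on chow and −6.35, −4.66 and −4.37 on HFD, with 2 of the 3 HFD arrays well above background. Its mean ratio was −5.93 ± 2.21 (limma unadjusted p = 0.000253, adjusted p = 0.164) and −4.66 without trial 1. Acsm3, a medium-chain acyl-CoA synthetase (−5.64 ± 3.19), Acvr1c, the activin receptor ALK7 (−5.41 ± 2.99), and the carboxylesterase Ces1f (−4.99 ± 2.83) followed. Only 1 HFD array was well above background for Acvr1c and 2 were for Acsm3 and Ces1f, so these ratios are in part ratios to background and their order is nominal. Each of the 3 had its largest ratio in trial 1, and without it their ratios were −3.80, −3.69 and −3.42.

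Klb (beta-klotho), the co-receptor of fibroblast growth factor 21, was well above background on all 3 chow arrays and on 0 HFD arrays, so only a bound can be given, at least 14.6-fold lower. Bcl2l10, a relative of the survival factor Bcl2, was bounded in the same way at 6.16-fold or more. Gipr, the receptor of the incretin hormone GIP, had levels of −3.57, −1.12 and −0.97 on chow and −7.93, −6.96 and −4.13 on HFD. Only the HFD array of trial 3 was well above background, so the ratio of −4.46 ± 1.34 is in part a ratio to background. Pon1, the paraoxonase carried on high-density lipoprotein, had a ratio of −3.88 ± 2.96, with −1.11 in trial 2, and of −2.31 without trial 1. Of the 112 lower genes, 66 had their largest ratio in trial 1, 30 in trial 2 and 16 in trial 3.

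The largest ratios on the higher side mostly belonged to genes that were dim on chow. Of the 276 genes, 42 were well above background on 0 chow arrays and have only a bound, and 171 were bright on all 6 arrays. Where chow arrays were dim, the size and order of the ratios are nominal. Pnoc, the precursor of the neuropeptide nociceptin, had the largest mean. Its log2 level was −6.21, −5.36 and −8.29 on chow, where 1 of 3 arrays was well above background, and 0.44, 1.14 and 0.43 on HFD. The HFD arrays were close to each other and far above the chow arrays. The mean ratio was 7.29 ± 1.24 (limma unadjusted p = 1.84e-05, adjusted p = 0.0856) and 7.61 without trial 1.

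Sostdc1, a secreted antagonist of bone morphogenetic proteins, had a ratio of 5.07 ± 0.49, with 1 chow array above background. Grem1 (gremlin 1) and Chrdl2 (chordin-like 2), secreted proteins that bind growth factors of the same family, had 0 such arrays, and were at least 9.66-fold and at least 3.75-fold higher. The levels of Chrdl2 were −4.44, −3.54 and −4.04 on HFD and between −8.36 and −7.82 on chow (limma adjusted p = 0.101). Slc6a2, the noradrenaline transporter of sympathetic nerve endings, was well above background on all 6 arrays. Its level was −2.18, −4.80 and −3.53 on chow and 1.42, 0.60 and 0.76 on HFD, and its ratio was 4.43 ± 0.91 (limma unadjusted p = 0.00307, adjusted p = 0.274). Gpr37l1, a receptor of glial cells, had a ratio of 4.50 ± 1.39 and Slitrk6, a neuronal adhesion protein, one of 4.46 ± 2.98, or 3.14 without trial 1. For Slitrk6 1 of 3 and for Gpr37l1 2 of 3 chow arrays were well above background. Gria1, a subunit of the AMPA glutamate receptor, was at least 3.96-fold higher, and Kcnmb4, a subunit of the large-conductance potassium channel, at least 11.2-fold. The Schwann cell markers given above were higher on the same arrays, and their part in these values was not tested.

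**Figure D3:**
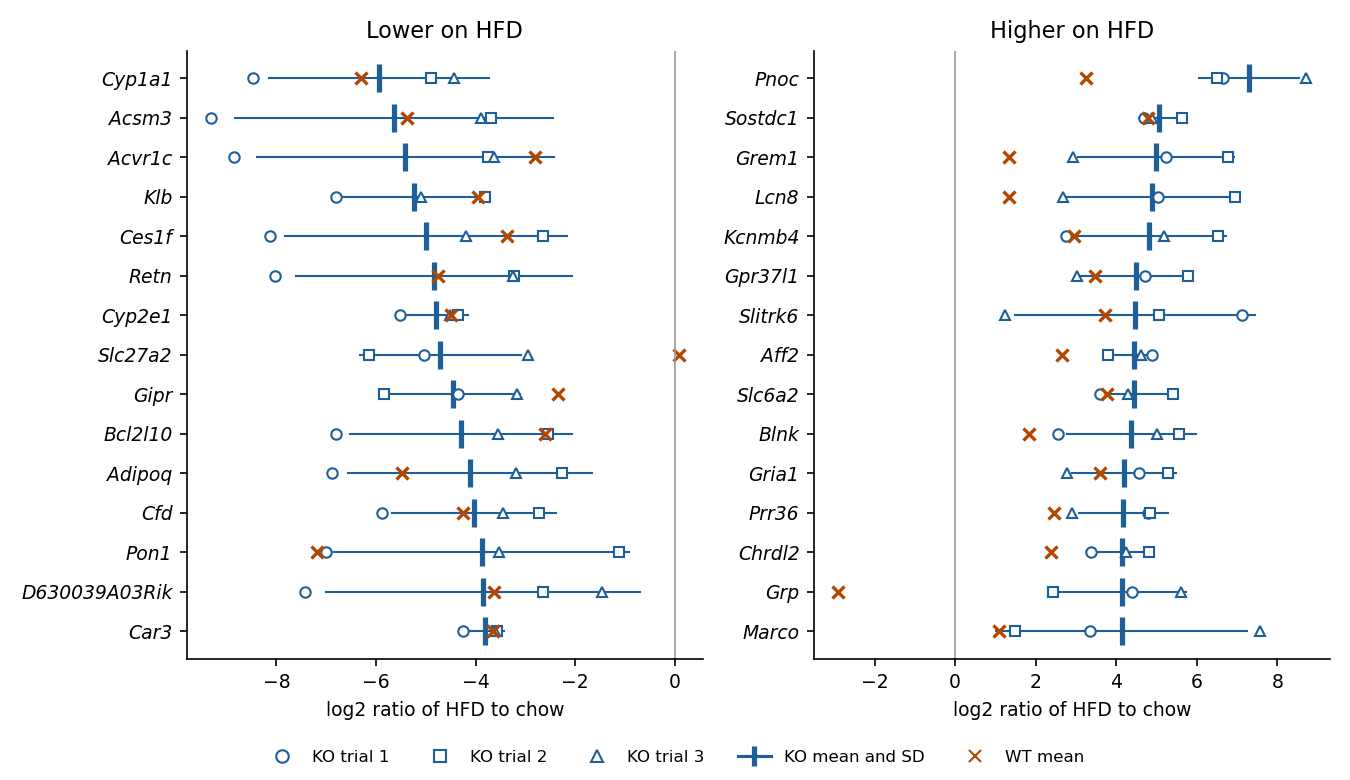
The 15 genes with the largest mean log2 ratio of HFD to chow in each direction among genes past 1 in all 3 KO trials (horizontal axis, log2 ratio; open symbols, KO trials; bars, KO mean and SD; crosses, WT mean). On the lower side trial 1 is often the extreme point, as for Acsm3, while the 3 trials of Car3 lie together near −3.81. The WT mean of Slc27a2 lies at 0.10 and that of Grp at −2.92.

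Most genes of the structural matrix of the vessel wall had higher levels on HFD. Of 26 tested fibrillar collagens and interstitial matrix genes, 24 had a positive mean ratio, 17 were above 0 in all 3 trials (background 19.8%), 5 were above 1 in all 3 (background 2.03%) and 0 were below −1. Their median was 0.92, or 0.81 without trial 1. Col6a2, a chain of the beaded filament collagen VI, had levels of −1.68, −2.82 and −1.27 on chow and 0.62, −0.65 and 1.60 on HFD. Every HFD array was above every chow array. Its ratio was 2.45 ± 0.37 (limma unadjusted p = 0.00232, adjusted p = 0.263). Col6a1, its partner chain, had a ratio of 1.61 ± 0.36. The fibril-nucleating chains Col11a1 (2.51 ± 0.59), Col5a3 (1.87 ± 0.85) and Col5a1 (1.16 ± 0.18) were also past 1 in every trial. By contrast the major fibril chains had smaller ratios, with 0.78 ± 0.24 for Col1a1 and 0.14 ± 0.43 for Col3a1, and like Col5a1 they are named after their values were seen.

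Elastic fibre genes had the highest median of the matrix lists over the 3 trials, 1.13. Without trial 1 it was 0.79, below the 0.81 of the fibrillar collagen and interstitial matrix list. Of 20 tested members, 18 had a positive mean, 14 were above 0 in every trial (background 19.8%) and 3 were above 1 in every trial (background 2.03%). Elastin (Eln), the core of the fibre, had levels of −0.37, −1.49 and −0.63 on chow and 0.79, 0.14 and 1.96 on HFD. The HFD arrays lay above all chow arrays, and the ratio was 1.79 ± 0.72 (limma unadjusted p = 0.0134, adjusted p = 0.362). Loxl1, an enzyme that cross-links elastin, had a ratio of 1.72 ± 0.81 and Ltbp2, a protein of the microfibril coat, one of 1.64 ± 0.41. The summed level of the list was 7.95 to 8.18 on chow and 8.21 to 9.03 on HFD.

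Within the basement membrane list 3 of 20 tested genes were above 1 in all 3 trials (background 2.03%), and all 3 encode collagen chains. Col15a1, a collagen that anchors the basement membrane to the matrix below, had levels of −0.71, 0.35 and −0.17 on chow and 3.15, 3.01 and 2.36 on HFD. Its ratio was 3.02 ± 0.73 (8.09-fold; limma unadjusted p = 0.00256, adjusted p = 0.264) and 2.59 without trial 1. Col4a5 and Col4a6 encode the α5 and α6 chains of collagen IV, which assemble together in the basement membrane around smooth muscle. Col4a5 had levels of −3.46, −2.81 and −1.78 on chow and −0.83, −0.37 and −0.36 on HFD, a ratio of 2.17 ± 0.65. Col4a6 had levels of 1.23, 2.60 and 1.84 on chow and 4.08, 4.21 and 3.19 on HFD, a ratio of 1.94 ± 0.81. For both, the HFD and chow arrays did not overlap. The chains of the common collagen IV network showed smaller ratios, 0.16 ± 0.40 for Col4a1 (0.39 without trial 1) and 0.26 ± 0.80 for Col4a2 (0.55 without trial 1), and are named after their values were seen. The median of the list was 0.43.

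The genes of the α5 and α6 chains sit head to head on chromosome X, and their promoters are shown because both genes were past 1 in every trial. The start sites are 1343 bases apart and are read in opposite directions. The windows of 250 bases before to 50 after each start are from RefSeq (GRCm38.p6), chrX:141475169-141475468 on the plus strand for Col4a5 and chrX:141474027-141474326 on the minus strand for Col4a6. Capitals mark the GC box, the letters GGGCGG or CCGCCC on either strand, a binding motif of Sp1-type factors.
Col4a5: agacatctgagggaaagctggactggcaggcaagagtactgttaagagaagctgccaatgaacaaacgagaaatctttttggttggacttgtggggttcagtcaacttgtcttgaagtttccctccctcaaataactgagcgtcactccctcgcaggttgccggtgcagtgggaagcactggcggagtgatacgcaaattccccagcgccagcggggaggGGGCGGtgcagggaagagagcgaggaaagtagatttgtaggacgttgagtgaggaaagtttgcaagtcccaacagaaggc
Col4a6: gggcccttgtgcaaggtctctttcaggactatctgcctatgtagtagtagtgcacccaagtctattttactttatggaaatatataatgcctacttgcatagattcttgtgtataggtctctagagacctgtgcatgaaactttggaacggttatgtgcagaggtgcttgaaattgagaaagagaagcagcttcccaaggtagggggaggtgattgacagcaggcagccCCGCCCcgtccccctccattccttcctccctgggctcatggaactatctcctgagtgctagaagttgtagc
Each window holds 1 GC box, 30 bases before the start of Col4a5 and 21 before that of Col4a6. The motif is common, and 35.7% of 32851 promoter windows of this length hold it, counted with 1 chromosome left out. A match is therefore only a description of these letters.

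Proteases that remodel the matrix gave 2 of 19 tested genes above 1 in every trial (background 2.03%). Mmp2, a gelatinase that cleaves collagen IV, had ratios of 1.43, 1.40 and 1.24, with a mean of 1.36 ± 0.10 (limma unadjusted p = 0.0162, adjusted p = 0.366). Its level was 3.60, 4.23 and 3.53 on chow and 5.03, 5.63 and 4.78 on HFD. Adamts8, an inhibitor of vessel growth among the ADAMTS proteases, had a ratio of 2.69 ± 0.43. The median of the list was 0.75, and 0.33 without trial 1.

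Among the genes tied to vascular calcification, 2 of 14 tested were above 1 in every trial (background 2.03%), and both act against mineral deposition. Tnfrsf11b encodes osteoprotegerin, the decoy receptor that blocks RANKL. Its level was −2.84, −3.14 and −4.90 on chow and −0.37, 0.72 and 0.88 on HFD. The arrays did not overlap, and the ratio was 4.04 ± 1.66 (16.4-fold; limma unadjusted p = 0.000485, adjusted p = 0.196) and 4.82 without trial 1. Enpp1, the enzyme that makes pyrophosphate, had a ratio of 2.85 ± 0.78. Spp1 (osteopontin), named after its values were seen, gave no steady value, with ratios of 5.56, −2.37 and 4.14.

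The circadian list held the largest share of members past 1 in every trial among the lists that are not cell type markers. Of 17 tested clock and output genes, 5 were above 1 in all 3 trials (background 2.03%). In 7 of them every HFD array was above every chow array (background 8.46%). Dbp, a transcription factor that the clock drives directly, had levels of 2.58, 2.05 and 1.29 on chow and 5.46, 4.93 and 3.81 on HFD. Its ratio was 2.88, 2.88 and 2.52, a mean of 2.76 ± 0.21 (6.77-fold; limma unadjusted p = 9.68e-06, adjusted p = 0.0794), and 2.70 without trial 1. Each HFD array lay above every chow array. Nr1d1 (Rev-erb alpha), a repressor in the second loop of the clock, had levels of −1.80, −0.46 and −0.49 on chow and 1.57, 1.43 and 0.76 on HFD, a ratio of 2.17 ± 1.09 and of 1.57 without trial 1. Ciart, a repressor of the CLOCK and BMAL1 pair, had a ratio of 2.15 ± 0.45 with its 3 chow arrays between −3.85 and −3.70. Bhlhe41 (Dec2), which competes with that pair for its sites, was dim on all 3 chow arrays and at least 1.80-fold higher, and Nr1d2 (Rev-erb beta) had a ratio of 1.36 ± 0.35. Bhlhe41 and Nr1d2 are named after their values were seen.

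Arntl and Cry1 lay on the other side of 0. Arntl encodes BMAL1, the activator itself, and had levels of 1.13, 0.92 and 1.79 on chow and −0.25, 0.25 and 0.62 on HFD. Every HFD array was below every chow array, although the ratio of trial 2 was only −0.67. The mean was −1.07 ± 0.37 (limma unadjusted p = 0.00416, adjusted p = 0.287). Cry1, a late repressor of the clock, had ratios of −2.24, −0.91 and −0.45. Per1 and Per2, the period genes, showed no such shift, with ratios of −1.51, 0.12 and 0.60 for Per1 and of −0.86, −1.51 and 1.49 for Per2. Arntl, Cry1, Per1 and Per2 are named after their values were seen. The hour at which the aortas were collected is not given in the sources used here.

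The promoters of Ciart, Bhlhe41 and Cry1 are shown because they carry the E-box CACGTG, the letters that CLOCK and BMAL1 bind, and because the first 2 were higher and the third lower on HFD. The windows are those of RefSeq (GRCm38.p6), all on the minus strand, at chr3:95882179-95882478, chr6:145865371-145865670 and chr10:85185005-85185304 in that order, with the E-box in capitals.
Ciart: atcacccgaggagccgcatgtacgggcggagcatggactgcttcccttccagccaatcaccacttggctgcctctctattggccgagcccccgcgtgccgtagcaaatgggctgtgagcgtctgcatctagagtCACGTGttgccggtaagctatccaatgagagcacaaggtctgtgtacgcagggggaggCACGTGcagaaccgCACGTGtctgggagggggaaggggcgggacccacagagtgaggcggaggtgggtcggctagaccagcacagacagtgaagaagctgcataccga
Bhlhe41: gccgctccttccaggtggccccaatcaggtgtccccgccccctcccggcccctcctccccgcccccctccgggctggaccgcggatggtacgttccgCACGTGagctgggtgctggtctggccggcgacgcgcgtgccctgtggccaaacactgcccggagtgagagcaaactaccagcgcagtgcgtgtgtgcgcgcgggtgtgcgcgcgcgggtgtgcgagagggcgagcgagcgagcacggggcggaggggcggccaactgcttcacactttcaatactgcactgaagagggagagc
Cry1: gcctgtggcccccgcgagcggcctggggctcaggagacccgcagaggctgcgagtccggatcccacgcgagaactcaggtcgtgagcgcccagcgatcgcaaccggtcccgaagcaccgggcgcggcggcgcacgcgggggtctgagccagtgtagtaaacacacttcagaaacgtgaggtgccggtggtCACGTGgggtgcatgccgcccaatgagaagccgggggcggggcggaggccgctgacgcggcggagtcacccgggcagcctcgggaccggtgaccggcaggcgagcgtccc
Ciart has 3 E-boxes in its window, at 116, 58 and 44 bases before the start, and the others have 1. Of the 17 tested clock genes 14 have a window and 5 of them hold an E-box in at least 1 window. The share was 8.09% over 27025 gene symbols with a window, counted with 1 chromosome left out. The windows of Dbp, Nr1d1 and Nr1d2 hold none, which says only that these letters are not within them. The motif reads the same on both strands.

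**Figure D4:**
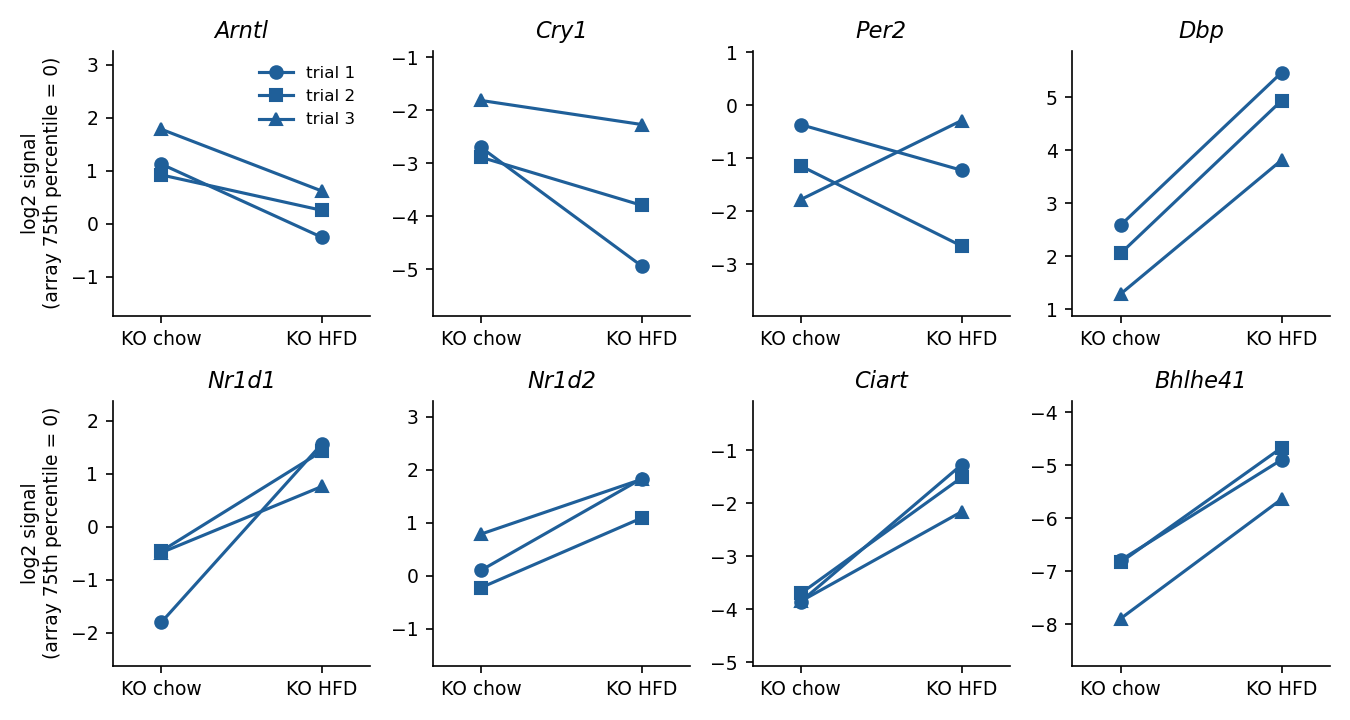
Log2 signal of 8 clock genes on the KO chow and KO HFD arrays (vertical axis, with the 75th percentile of the array at 0; lines join the arrays of a trial). Dbp, Nr1d1, Nr1d2, Ciart and Bhlhe41 lie higher on every HFD array, Arntl lies lower on every HFD array, and the lines of Per2 cross.

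Of 25 tested vasoactive receptors, 1 was above 1 in every trial (background 2.03%) and 2 were below −1 (background 0.822%). Tbxa2r, the thromboxane receptor through which platelets and prostanoids constrict vessels, had levels of −0.11, −0.25 and 0.06 on chow and 1.20, 1.62 and 1.18 on HFD. Its ratio was 1.43 ± 0.39 (limma unadjusted p = 0.00694, adjusted p = 0.325). Ptgfr, the receptor of prostaglandin F2α and another constrictor, had ratios of 2.44, 2.73 and 0.86, and so missed the criterion in trial 3. Ptgir, the receptor of the dilator prostacyclin, was higher too (1.86 ± 1.14), though a second probe of the gene gave the opposite sign. Ednrb, the endothelin receptor of endothelial cells, had levels of 2.95, 3.75 and 3.83 on chow and 1.77, 1.67 and 2.10 on HFD, a ratio of −1.66 ± 0.45. Ednra, the endothelin receptor of smooth muscle, had a ratio of 1.11 ± 0.43. The prostaglandin E2 receptor Ptger2 had one of −1.43 ± 0.42. Ptgir and Ednra are named after their values were seen.

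Insulin and IGF signalling had 2 of 22 tested members above 1 in every trial (background 2.03%) and 0 below −1 (background 0.822%). The median of the list was 0.22, or 0.34 without trial 1. Igf1, insulin-like growth factor 1, had levels of 2.85, 3.31 and 2.31 on chow and 4.17, 4.75 and 3.31 on HFD, ratios of 1.32, 1.43 and 1.01. The arrays overlapped only at the highest chow and lowest HFD value. Prkca, protein kinase C alpha, had a ratio of 2.39 ± 0.84. Irs1, the main substrate of the insulin receptor, had ratios of 0.90, 1.94 and 1.19. The receptor Igf1r had a mean of −0.37 ± 0.88 (−0.11 without trial 1) and differed in sign between trials. Slc2a4, the insulin-responsive glucose transporter GLUT4, had levels of 2.62, 0.65 and 1.65 on chow and −1.38, −0.08 and −0.19 on HFD. Its ratio was −2.19 ± 1.66 (limma unadjusted p = 0.00987, adjusted p = 0.35) with −0.73 in trial 2, and −1.29 without trial 1. Adipocytes also express this transporter, and the adipocyte markers given above were lower on the same arrays. Their part in this ratio was not tested. The 23 tested genes of glucose entry and glycolysis, Slc2a4 among them, had a median of −0.06, or −0.04 without trial 1, with 0 past 1 in every trial.

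Some genes measured by PCR in the study depended on single trials. Cp (ceruloplasmin), the copper-carrying ferroxidase, had ratios of 4.43, −1.15 and −1.22. Its HFD array of trial 1 stood at 3.40 while the others stood at 0.19 and −0.03, and without trial 1 the mean turned from 0.69 to −1.18. Its probe is one of the 18 that differed between the strains, and the WT arrays read 3.26 to 4.60, so the array labelled KO HFD trial 1 stood at a WT level here. Marco, a scavenger receptor of macrophages, had ratios of 3.36, 1.49 and 7.57, and Retnla, a resistin-like factor, ratios of −1.84, −5.81 and 0.26. Cav3, the muscle caveolin, was past 1 in every trial, with levels of −2.67, −0.98 and −5.21 on chow and −0.51, 1.06 and −0.68 on HFD and a ratio of 2.91 ± 1.40. G6pc, the glucose-6-phosphatase of liver, had a mean of −0.54 ± 0.93, and of −0.27 without trial 1.

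In the remaining pathways few members met the criterion. Of 25 tested guidance genes, 3 were above 1 in every trial (background 2.03%) and 0 were below −1. All 3 are receptors of the ephrins that guide axons and vessels, namely Ephb3 (2.04 ± 0.24), Epha3 (1.84 ± 0.86) and Ephb2 (1.56 ± 0.27). The list as a whole was mixed, with 12 positive and 12 negative means and a median of −0.09, or 0.02 without trial 1. In 9 members the ratio was above 0 in all 3 trials (background 19.8%), and in 5 it was below 0 in all 3 (background 15%). The summed level was 6.80 to 7.28 on chow and 6.35 to 6.77 on HFD. Insig1, the sterol sensor that holds back cholesterol synthesis, was the 1 of 22 cholesterol genes below −1 in every trial (background 0.822%). Its ratio was −1.89 ± 0.56 (limma unadjusted p = 0.00162, adjusted p = 0.242). Coagulation factor X (F10) was the 1 of 19 coagulation genes below −1 in every trial (background 0.822%), with a ratio of −2.46 ± 1.42. The lists of Notch and arterial identity, fatty acid uptake and oxidation, ribosomal proteins and the respiratory chain had 0 members past 1 in every trial, with medians of −0.36, −0.45, −0.11 and −0.18. Without trial 1 these were 0.16, −0.13, 0.02 and 0.04, so that 3 of the 4 turned sign. The lists of fatty acid genes, ribosomal proteins and the respiratory chain had medians below 0 in trials 1 and 3 and above 0 in trial 2, as did the median of all genes (−0.13, 0.29 and −0.02). No member was past 1 in every trial, either, among 20 leukocyte adhesion molecules and chemokines (median −0.04), 18 interferon-stimulated genes (0.15), 26 antioxidant genes (−0.14), 21 cell cycle genes (−0.07), 22 immediate early genes (0.01), 26 genes of VEGF, angiopoietin and TGF-beta (0.10) and 10 genes of nitric oxide and cGMP (−0.35). Without trial 1 these medians were −0.20, 0.16, 0.05, −0.25, −0.02, 0.03 and −0.27 in the same order.

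**Figure D5:**
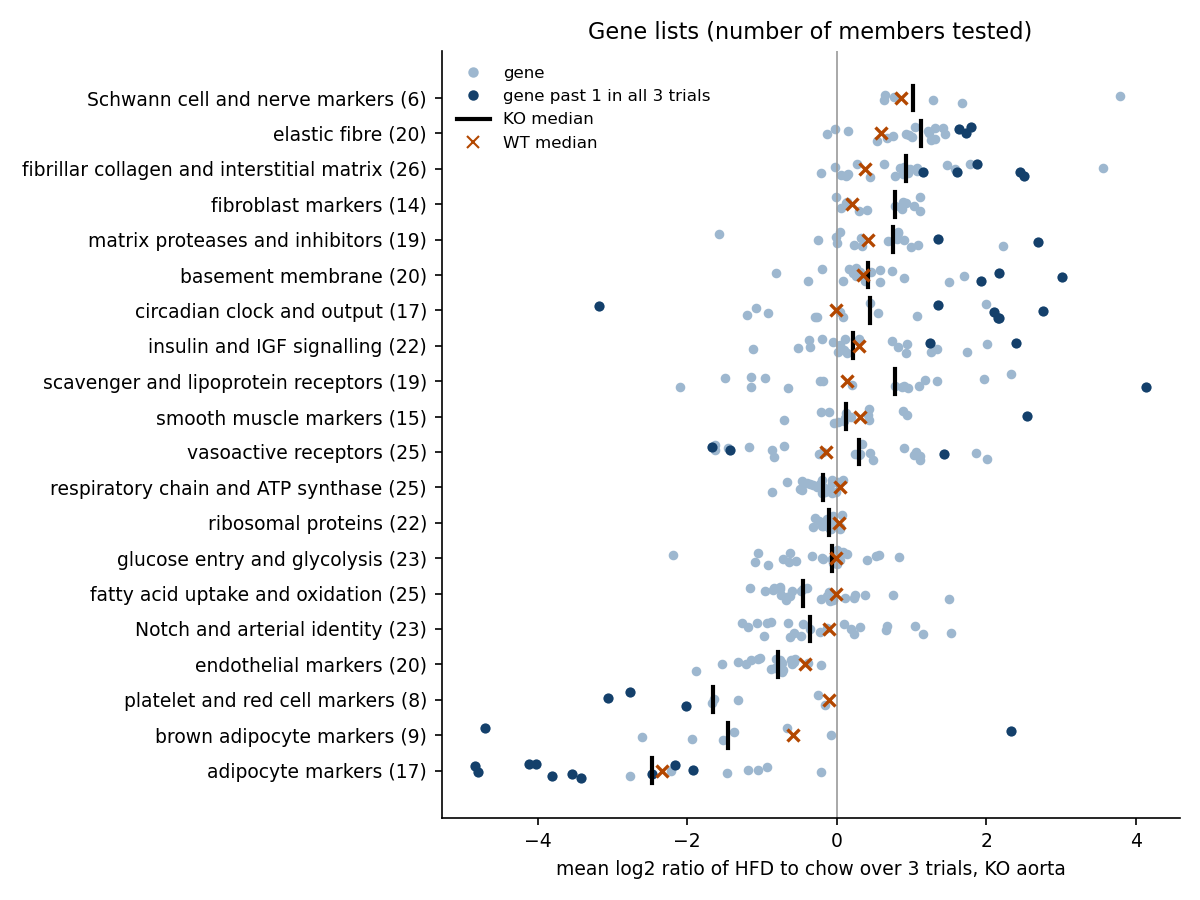
Mean log2 ratio of HFD to chow over the 3 KO trials for every tested member of 20 gene lists (points, dark where the ratio was past 1 in all 3 trials; number of tested members in brackets; black bar, KO median; cross, WT median). Adipocyte markers lie lowest with a median of −2.47, elastic fibre genes have a median of 1.13, and ribosomal proteins cluster near 0.

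The same diet comparison in WT aorta shares no array with the KO comparison and is given beside it. Of the genes tested in KO, 73 were above 1 in all 3 WT trials (0.536%) and 76 below −1 (0.558%). Of the 276 genes higher in KO, 255 had a positive WT mean, 35 were past 1 in every WT trial, and the median ratio was 2.15 in KO and 1.19 in WT. Of the 112 lower genes, 95 had a negative WT mean, 34 were past −1 in every WT trial, and the medians were −2.31 and −1.21. Since the genes were chosen on their KO values, a larger KO than WT ratio follows in part from that choice. A test of the difference between the strains called 0 probes (0%) by limma at an adjusted p under 0.05, and 203 genes (1.49%) had an unadjusted p under 0.05.

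The adipocyte markers had a median of −2.33 in WT with 10 of 17 below −1 in every trial, as many as in KO, and Car3 had a WT mean of −3.65 (limma p of the difference 0.676). Dbp had ratios of 1.93, 1.75 and 1.68 in WT against 2.88, 2.88 and 2.52 in KO (unadjusted p of the difference 0.0239). Arntl had a WT mean of −0.87 (p of the difference 0.584). Of the 13 matrix genes above 1 in every KO trial, 12 had their highest WT ratio in trial 2, and their median WT ratio was 0.51, 2.70 and 0.31 in the 3 trials. Among all genes, 6071 of 13599 also had their highest WT ratio in trial 2. Over all genes, 10.46% had a WT ratio past 1 in either direction in trial 1, 25.3% in trial 2 and 14.6% in trial 3. Col15a1 had WT ratios of 1.13, 3.77 and 0.31, Mmp2 of 0.19, 2.25 and 0.31 and Col6a1 of −0.29, 2.79 and 0.07, and the unadjusted limma p of the difference was 0.209, 0.495 and 0.395. Tnfrsf11b had WT ratios of 2.49, 0.77 and 0.71 (p of the difference 0.0219), Col11a1 of between −1.32 and 0.97 (0.0054) and Pnoc of 3.48, 4.82 and 1.48 (0.00473). After adjustment none of these differences between the strains passed 0.05 by limma.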

How the data were processed

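RNA of sorted aortic cells was read on single-colour Agilent whole-genome arrays. The authors deposited, per array, a processed intensity for each spot, from which the scanner software had subtracted the background. Software version 10.5.1.1 stands in the file headers and 9.1 in the submitters' processing notes. A deposited table of the authors' log2 values equals log2 of these intensities plus 1 constant per array. Per the labels, samples were grouped by strain, diet, tissue and trial, and 0 sample columns were left out.

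Log2 of the processed intensity was taken relative to the 75th percentile of the non-control spots of the array (45018 spots, 43379 non-control, 41174 probes). Outlier spots were dropped, which left 1074 values missing, and a sample without a value left the ratio of its trial blank. Probes were tested if well above background on all 3 arrays of KO HFD or all 3 of KO chow (24600). Symbols came from accessions and gene tables (27198 probes, 18539 symbols), and the probe with the highest mean level stood for a gene. The contrast was fitted with limma 3.58.1 (R 4.3.3) on the 12 aortic arrays, with 1 block per strain and trial, 4 residual degrees of freedom and Benjamini-Hochberg adjustment. The script was tested on simulated data. The trials are 3 independent experiments, each on its own slide, so the pairing of HFD with chow comes from the design. The correlations of the deviations of paired arrays from their group means were 0.01, 0.09 and 0.30. Trial 1 was scanned in 1 session and trials 2 and 3 in another.

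A probe well above background on all arrays of 1 group and on none of the other was given as a bound, against the higher of the probe's own level and the lowest level well above background on each array. The 36 gene lists hold 8 to 31 genes each. Named genes were the 15 with the largest mean ratio in each direction past 1 in all 3 trials, up to 4 members per list past 1 in all 3, defining markers, the genes of the study's PCR and Lgals3. Some genes under this rule are not reported here. The lists, members and comparison were chosen with earlier results of these data known. Alternatives covered background correction (normexp with an offset of 50), normalization, filter, block, samples, threshold, probe choice, test and trials. Promoter sequences are from RefSeq (GRCm38.p6), and figures were drawn with matplotlib 3.10.9 in Python 3.11.15.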

Additional observations from a re-analysis of the deposited data

Results flagged for a closer look

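The log2 ratios of HFD to chow of Grp, the gene of gastrin-releasing peptide, were above 0 in KO and below 0 in WT. They were 4.40, 2.44 and 5.60 in KO and −5.65, −3.09 and −0.02 in WT, with a nominal KO minus WT difference of 7.07. The test of that difference gave an unadjusted limma p of 0.0021 and an adjusted p of 1.00. Grp was well above background on 0 of 3 KO chow arrays, 3 of 3 KO HFD arrays, 2 of 3 WT chow arrays and 0 of 3 WT HFD arrays. The difference therefore has no measured size, and the WT ratio of trial 3, between arrays at −8.59 and −8.61, gives no direction. In KO it was at least 5.06-fold higher on HFD.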

How the results depend on the processing

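The count of probes that limma called in KO was 0 as reported and 4 with normexp background correction, 1 with quantile normalization, with the deposited log2 table or with probes bright on all 6 arrays, 11 with the KO arrays alone and the trial as replicate block, 7 with no replicate block and 12 with the slide as a block shared by both strains. Car3 was among the called probes in each of these settings. It stayed at 0 with no filter, with the methods' t-test after adjustment and without replicate 1, 2 or 3. The count for KO minus WT was 0 in all 10 alternatives run. Probes above 1 in every trial numbered 441 as reported, 236 among probes bright on all 6 arrays, 724 at a threshold of 0.75, 276 as gene symbols and 785 to 1362 with a replicate left out. Probes below −1 numbered 275, and 171 with normexp, 133 among probes bright on all 6 arrays, 505 at 0.75, 112 as gene symbols and 582 to 1160 with a replicate left out. With a replicate left out only 2 trials had to agree. Median ratios moved by more than their spread for fibrillar matrix (leave-one-out 0.81 to 1.04), insulin and IGF (0.22 to 0.36, and 0.27 as the mean of probes), scavenger receptors (0.35 to 0.49), nitric oxide (−0.58 to −0.20, and −0.15 as the mean of probes), guidance (−0.14 to 0.31), macrophage (−0.65 to 0.23) and proteases (0.33 to 0.85). The other 238 values of list medians moved by less. Of the single genes, 454 values kept their side, and values turned sign for Acta1 (leave-one-out −0.27 to 0.41) and Acta2 (−0.25 to 0.63), both without replicate 2, and for Cp (−1.18 to 1.64), without replicate 1. Among genes named in the text, Car3, Dbp and Pnoc passed an adjusted limma p of 0.05 with normexp. Other settings also passed some of them besides Car3. These were Pnoc, Sostdc1 and Cyp2e1 with the KO arrays alone, Cyp1a1, Pnoc and Chrdl2 with no replicate block, and Dbp and Chrdl2 with the shared slide block. The cause was not tested. With 3 trials, dim probes and a KO HFD array between the strains limit what single ratios show.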
